A study of Mus musculus with 4 samples.

Results

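The 48 genes described here encode the adhesion machinery that ties a cell to its surrounding matrix: 18 integrin subunits, 8 laminin chains, 6 other matrix proteins that integrins bind, and 16 proteins of the focal adhesion plaque. They were chosen by name, and every non-control probe whose gene name in the array files was 1 of the 48 was taken, which gave 112 of the 41174 probes of the array. A gene counted as measured when the scanner software found its probe well above background on all 4 arrays. This held for 38 of the 48 genes, against 11890 of the 19146 named genes with a value on all 4 arrays.

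3T3-L1 is an established mouse line of preadipocytes that turns into adipocytes after hormonal induction. The study asked how bilberry extracts and the anthocyanidins they contain act on the early program of that differentiation. Total RNA was taken on day 2 from cells given 0.1% DMSO, 100 µg/ml bilberry extracts, 100 nM delphinidin or 100 nM cyanidin, all in initiation medium with insulin, dexamethasone and IBMX. Per the methods, the same DMSO concentration was present in every culture, and the labels describe treatment beyond the day of harvest. Each group is a single sample on a single array, so the differences given here have neither an SD between cultures nor a p-value.

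Integrins are receptors built from an alpha and a beta subunit, and the pair decides which matrix protein is bound. Laminins are trimers of an alpha, a beta and a gamma chain and form the sheet-like network of the basement membrane, which surrounds mature adipocytes. Inside the cell, talin and kindlin activate integrins, and vinculin, paxillin, focal adhesion kinase, zyxin and filamin build the plaque that links them to actin. During adipogenesis a fibronectin-rich matrix is known to give way to a laminin-rich basement membrane, and the expression of alpha integrin subunits is known to shift from alpha5 to alpha6.

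Values are given as the scaled signal, which is the background-subtracted intensity of a probe divided by the 75th percentile of its array, so that 1 is that percentile. The percentile was an intensity of 861 under DMSO, 576 under bilberry, 1009 under delphinidin and 1016 under cyanidin, and 56.2% to 61.5% of probes were well above background. Each gene stands for its brightest probe, and signals were compared between arrays for the same probe. The summed signals of marker lists add probes that differ in brightness, so they follow the probes with the highest signal. In a culture, fewer cells and less RNA per cell cannot be told apart. All 9 adipocyte markers with a value (Pparg, Cebpa, Fabp4 and Adipoq among them) and all 9 preadipocyte or fibroblast markers were measured. Their summed scaled signals ranged over the arrays from 297 under bilberry to 499 under cyanidin for the adipocyte list and from 594 under cyanidin to 792 under bilberry for the preadipocyte list. The brightest marker of each list was Fabp4 (265 under DMSO and 137 under bilberry) and Col1a2 (277 and 403). Other markers of both lists lay on both sides of DMSO under bilberry. Relative to the median of all genes, the median log2 ratio under bilberry, delphinidin and cyanidin was -0.02, 0.21 and 0.40 for the adipocyte list and -0.29, 0.01 and -0.21 for the preadipocyte list. Past 2-fold were Adipoq, lower under bilberry (-1.07), Thy1, lower under bilberry (-1.20), and Ly6a, lower under all 3 treatments (-2.13, -2.25 and -1.08). Under bilberry the adipocyte markers other than Fabp4 (-0.95) and Adipoq lay between -0.36 (Cd36) and 0.50 (Cebpa), with Pparg at 0.15. The 7 preadipocyte markers other than Ly6a and Thy1 lay between -0.51 and 0.54 over the 3 treatments. None of 5 endothelial markers was above background on any array (summed scaled signal 0.0176 to 0.0319). Of the macrophage list, Ptprc, Emr1 and Itgam were not above background on any array and the sum was 0.432 to 0.784. Cd14 and Csf1r, measured on all 4 arrays, had log2 ratios of opposite sign, -0.13, -0.90 and -0.45 for Cd14 and 1.16, 0.26 and 0.53 for Csf1r. The sums were 0.126 to 0.210 for the epithelial list, whose Cdh1, Tacstd1 and Krt18 were below detection and whose Krt8 had log2 ratios of 1.17, 1.80 and 1.06 under the 3 treatments, and 0.0629 to 0.0899 for the muscle list, whose Myog, Myf5 and Ckm were. The part of these cell types in the results was not tested.

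Over all measured genes the median log2 ratio to DMSO was 0.17 for bilberry, -0.01 for delphinidin and 0.02 for cyanidin, with SDs over genes of 0.65, 0.39 and 0.36. Class medians below are therefore given relative to the median of all genes. Scaling to 10 spike-in control probes in place of the percentile moves every bilberry log2 ratio by -1.54, every delphinidin ratio by 0.26 and every cyanidin ratio by 0.23, so the sign of a bilberry ratio is that of the percentile scaling, and a gene with a bilberry ratio between 0 and 0.17 is above DMSO but below the median of all genes. The 3 treatments share the DMSO array, and a deviation of that array enters all 3 ratios.

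The median laminin chain lay below the median of all genes with each treatment, Lama4 being above it under delphinidin and cyanidin, and under bilberry 10 of the 16 plaque genes lay above that median and 6 below it. Under bilberry, 2 of the 38 measured genes were more than 2-fold higher than under DMSO (Itga3 and Itgb7), where 3.94% of all measured genes were. The 3 that were more than 2-fold lower were Lama5, Lama2 and Itga8, where 6.32% of all measured genes were. Together these 5 genes are 13.2% of the measured members, near the 10.3% of all genes. Under delphinidin and under cyanidin the laminin chain Lama5 was more than 2-fold lower, alone among the 38 measured genes. Itga11 and Itgb8, not well above background on all 4 arrays, were also lower under cyanidin, by at least 2.53-fold and 2.15-fold. The background in the lower direction was 1.45% under delphinidin and 1.14% under cyanidin. In the higher direction, where no measured member passed, it was 1.23% and 0.622%. Lama5 was thus the 1 measured member lower by more than 2-fold in all 3 comparisons, which 0.463% of genes were. No measured member was higher in all 3, which 0.294% of genes were. The bilberry calls of Lama5 and Lama2 were lost under the first of the 2 normexp fits, with log2 ratios of -0.37 and -0.36, and the common count was then 0. Those of Itga3, Itgb7 and Itga8 were lost under the second, with 0.92, 0.93 and -0.15.

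**Figure D1:**
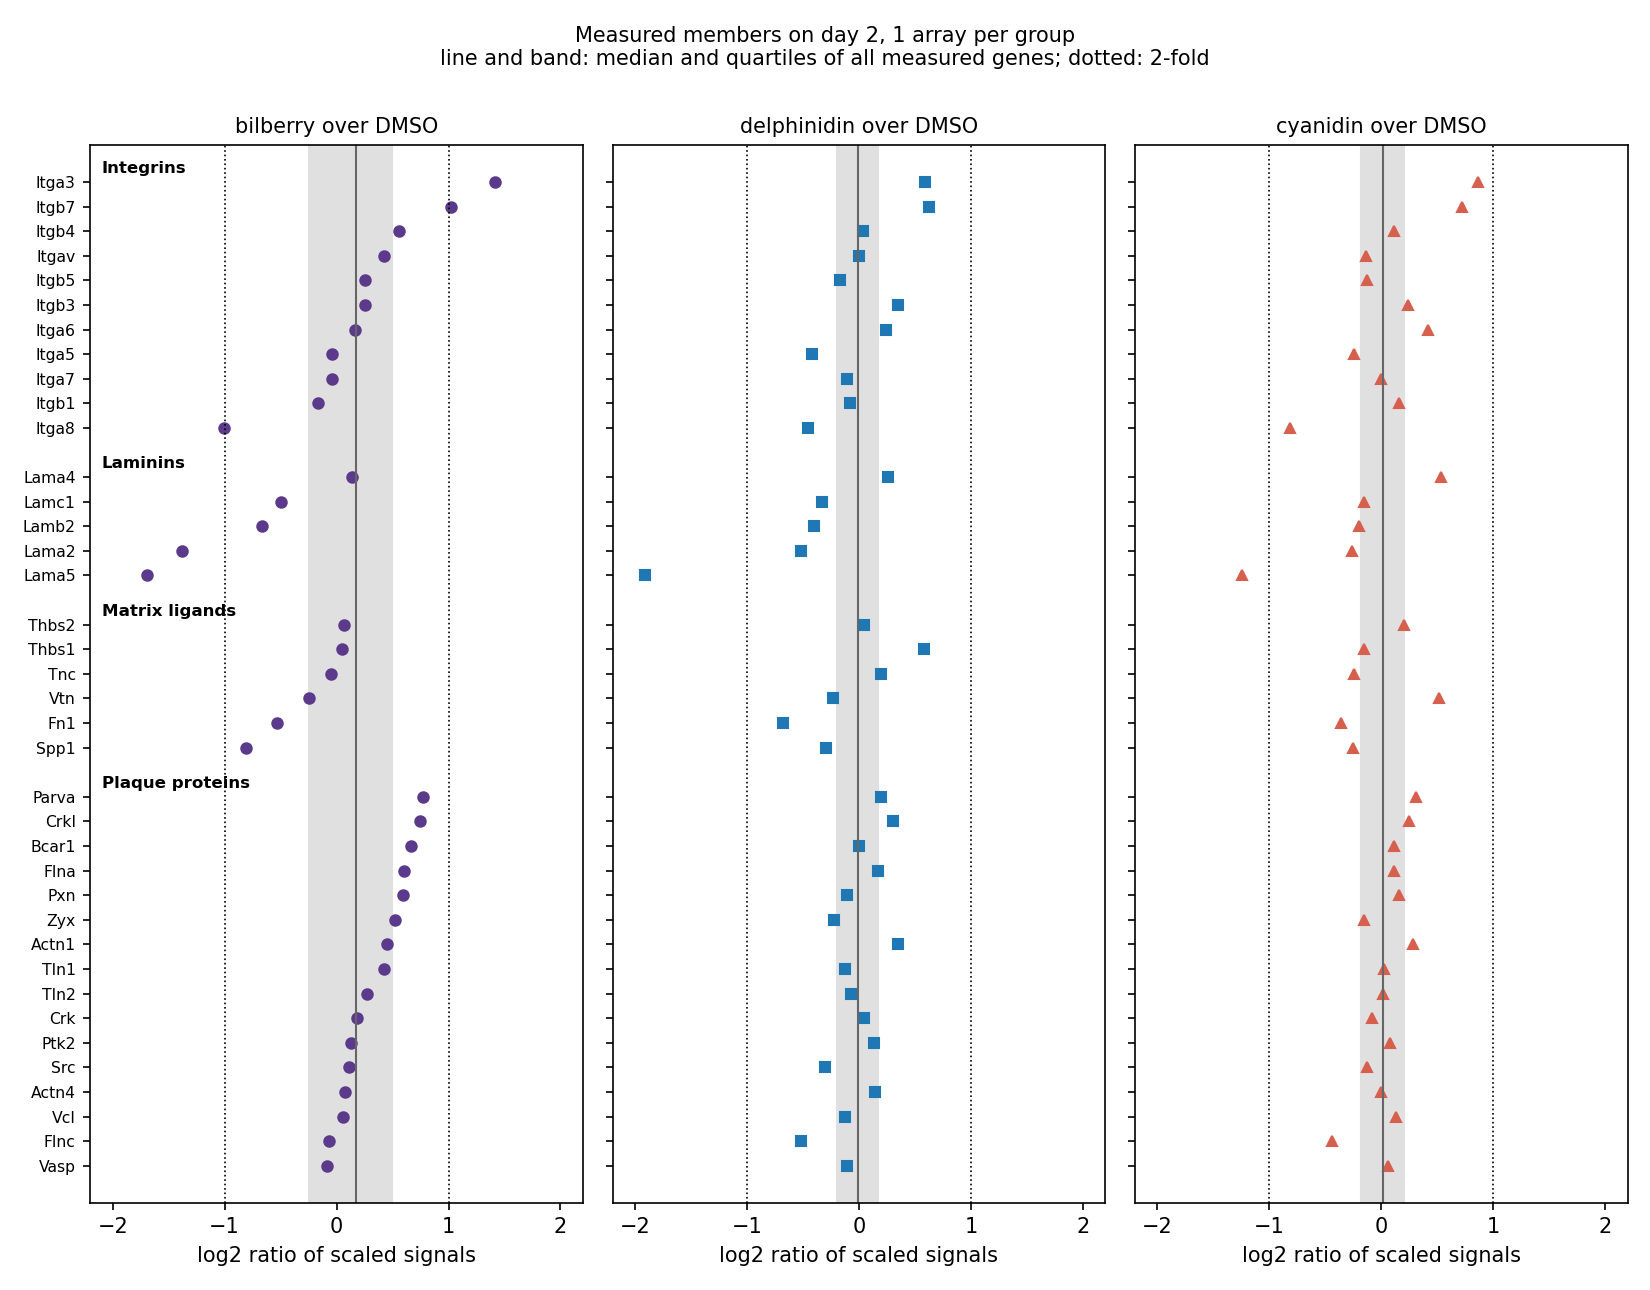
Log2 ratio of the scaled signal to the DMSO array for each of the 38 measured genes (rows, grouped by class and ordered by the bilberry value), under bilberry (circles), delphinidin (squares) and cyanidin (triangles); 1 array per group. Lama5 lies left of the 2-fold line in all 3 panels, and the laminin chains other than Lama4 lie below 0 in each.

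The laminin chains had a median below that of all genes under all 3 treatments. The median over the 5 measured chains, minus that of all genes, was -0.83 under bilberry, -0.40 under delphinidin and -0.22 under cyanidin on the log2 scale. It stayed below 0 in each of the 10 alternative settings run, from -1.11 to -0.48 under bilberry, -0.44 to -0.26 under delphinidin and -0.26 to -0.13 under cyanidin. Of the 5 chains, 4 (Lama2, Lama5, Lamb2 and Lamc1) had log2 ratios below 0 with every treatment and 1 (Lama4) had ratios above 0.

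Lama5 encodes the alpha5 chain of laminins of mature basement membranes. Its scaled signal was 0.799 under DMSO, 0.248 under bilberry, 0.212 under delphinidin and 0.337 under cyanidin. The DMSO array was the highest of the 4 and the delphinidin array the lowest. These values put DMSO 3.23-fold above bilberry, 3.76-fold above delphinidin and 2.37-fold above cyanidin (log2 ratios -1.69, -1.91 and -1.24). The gene has 1 probe, spotted once, which the files place at chr2:180105781-180105795 on the minus strand of mm8. That entry spans 15 bases of a longer probe, and no second probe checks the value.

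Lama2 encodes the alpha2 chain, the laminin chain bound by integrin alpha7 and by dystroglycan in muscle and nerve. Its scaled signal was 0.687 under DMSO, 0.265 under bilberry, 0.479 under delphinidin and 0.575 under cyanidin. All 3 treated arrays were below DMSO, bilberry the furthest. Its probe at chr10:26673839-26673898 on the minus strand was spotted 10 times, of which 7 to 10 were kept on an array, and the log2 ratios were -1.38 ± 0.02 under bilberry, -0.52 ± 0.02 under delphinidin and -0.26 ± 0.02 under cyanidin, where the error is the SE over spots and covers spotting and scanning only. Of these, bilberry alone passed 2-fold, under DMSO 2.60-fold higher. A second Lama2 probe gave -1.30, -0.51 and -0.34, a difference from the first of 0.08, 0.01 and 0.08.

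Lamc1 and Lamb2 encode the gamma1 and beta2 chains, and gamma1 is part of most laminin trimers. The scaled signal of Lamc1 was 46.1 under DMSO, 32.7 under bilberry, 36.6 under delphinidin and 41.6 under cyanidin. For Lamb2 it was 5.01, 3.16, 3.79 and 4.36 in the same order. Both genes kept 1 order of arrays, under DMSO highest, then cyanidin, delphinidin and bilberry, as Lama2 did. Neither passed 2-fold as scaled here: the log2 ratios were -0.50, -0.33 and -0.15 for Lamc1 and -0.66, -0.40 and -0.20 for Lamb2. Under the first normexp fit both bilberry values passed it, at -1.10 for Lamc1 and -1.06 for Lamb2.

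Lama4 encodes the alpha4 chain, a major alpha chain of mesenchymal and fat cell laminins. Its scaled signal was 10.9 under DMSO, 12.0 under bilberry, 13.0 under delphinidin and 15.8 under cyanidin. The DMSO array was the lowest here, the opposite of the other 4 chains, although relative to the median of all genes the bilberry value was low for all 5. The log2 ratios were 0.14, 0.26 and 0.54, none past 2-fold. The bilberry value was below 0 after quantile normalization and under the first normexp fit. A dimmer Lama4 probe gave -0.69 under cyanidin, against 0.54 for the brightest.

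Of the other chains, Lama1 and Lamb3 were below detection on all 4 arrays. Lama3 was well above background on the delphinidin array alone, at 0.0144, which is at least 1.31-fold above cyanidin (0.0110). Its signals under DMSO (0.0162) and bilberry (0.0218) were higher but not well above background, so no fold can be given against them.

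**Figure D2:**
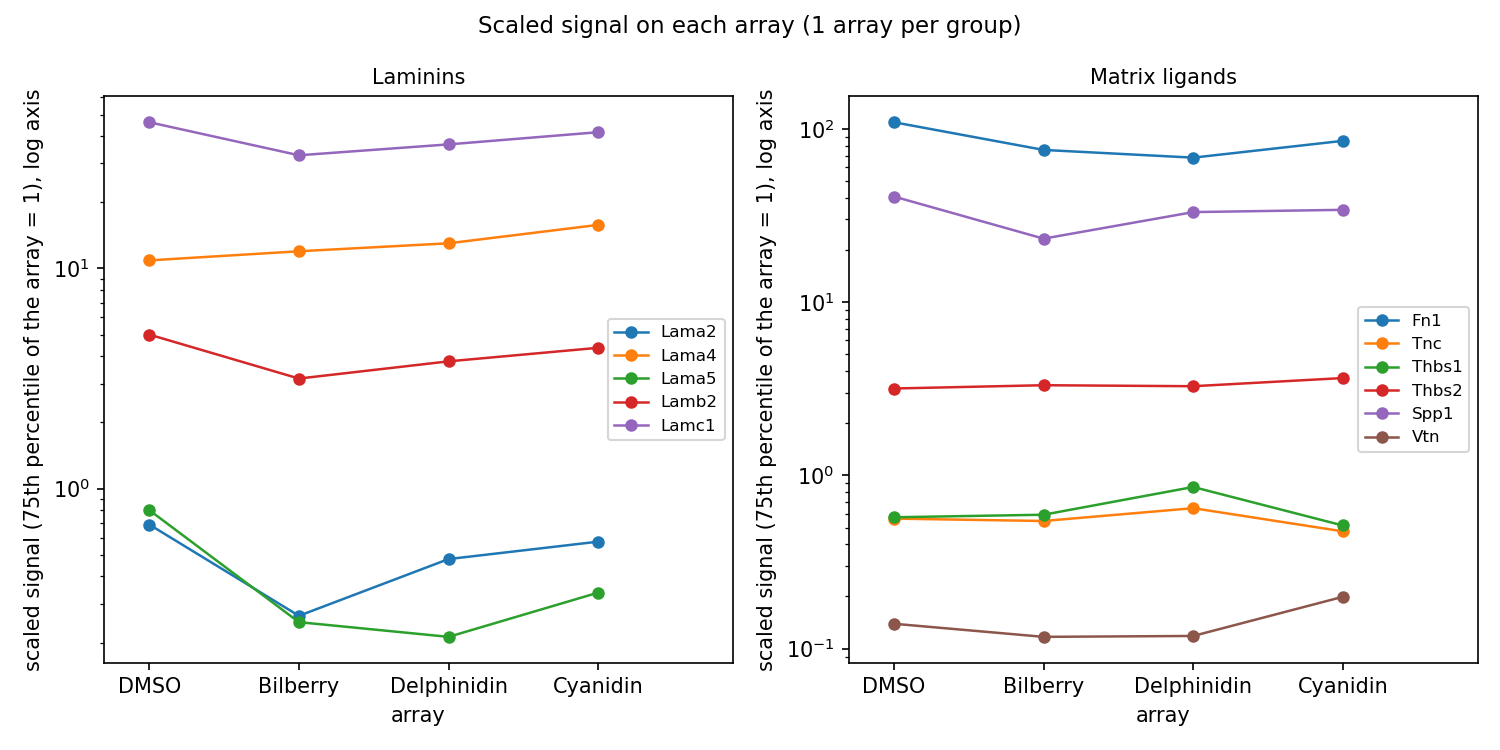
Scaled signal (log axis, 75th percentile of each array = 1) of the 5 measured laminin chains and the 6 other matrix ligands on the 4 arrays, 1 point per array; lines join the points of a gene. Lama5 drops from 0.799 under DMSO to between 0.212 and 0.337, and Fn1 from 109 to between 68.1 and 85.1.

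The stretch around the annotated start is shown for the 2 laminin genes past 2-fold, for a matrix ligand and for a plaque gene, as examples of the short motifs counted by class. The sequences are those of RefSeq for GRCm38.p6, from 250 bases before to 50 after the start, and they were found for 34 of the 48 genes (41 promoters). Capitals mark matches on either strand to TATAAA, to GGGCGG and to the CArG box, the site of serum response factor. The Lama5 promoter is chr2:180225810-180226109 (minus strand), that of Lama2 chr10:27616893-27617192 (minus), that of Thbs2 chr17:14694213-14694512 (minus) and that of Zyx chr6:42349578-42349877 (plus).
Lama5: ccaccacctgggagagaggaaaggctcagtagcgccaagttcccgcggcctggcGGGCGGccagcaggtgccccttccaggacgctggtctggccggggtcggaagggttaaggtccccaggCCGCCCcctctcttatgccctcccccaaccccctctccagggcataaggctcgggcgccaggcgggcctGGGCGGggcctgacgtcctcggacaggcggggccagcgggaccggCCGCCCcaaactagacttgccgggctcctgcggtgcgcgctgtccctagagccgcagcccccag
Lama2: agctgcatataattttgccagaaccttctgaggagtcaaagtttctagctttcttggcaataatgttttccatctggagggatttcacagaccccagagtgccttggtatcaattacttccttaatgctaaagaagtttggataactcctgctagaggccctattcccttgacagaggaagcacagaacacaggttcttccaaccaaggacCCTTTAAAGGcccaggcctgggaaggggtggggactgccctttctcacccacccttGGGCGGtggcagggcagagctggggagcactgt
Thbs2: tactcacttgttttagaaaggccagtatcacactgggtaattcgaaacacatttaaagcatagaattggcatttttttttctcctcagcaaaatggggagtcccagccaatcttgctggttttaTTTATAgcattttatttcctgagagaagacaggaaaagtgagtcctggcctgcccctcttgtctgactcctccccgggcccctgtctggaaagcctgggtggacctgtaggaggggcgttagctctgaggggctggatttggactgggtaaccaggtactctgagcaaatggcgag
Zyx: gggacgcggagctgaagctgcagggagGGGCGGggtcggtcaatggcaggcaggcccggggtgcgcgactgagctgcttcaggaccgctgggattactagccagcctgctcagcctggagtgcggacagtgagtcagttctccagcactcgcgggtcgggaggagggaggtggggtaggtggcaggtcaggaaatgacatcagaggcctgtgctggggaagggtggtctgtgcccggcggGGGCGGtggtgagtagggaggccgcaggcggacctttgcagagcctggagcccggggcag

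The Lama5 sequence holds 4 matches to GGGCGG, a motif known to be bound by Sp1, and none to TATAAA. Lama2 holds 1 GGGCGG and 1 CArG box, the latter 39 bases before the start. Thbs2 holds 1 TATAAA, on the opposite strand and 126 bases before the start, and Zyx holds 2 GGGCGG. Among the members the TATAAA sequence was in all 4 matrix ligand genes with a sequence (Spp1, Thbs2, Tnc and Vtn) and in none of 14 integrins, 4 laminins or 12 plaque genes, while 15.7% of the genes in the RefSeq table hold it. Its place in those 4 genes was 126 to 211 bases before the start. GGGCGG was in 9 of 12 plaque genes, 7 of 14 integrins, 2 of 4 laminins and 1 of 4 matrix ligands, against 38.2% of all genes. The CArG box was found in Itgb6, Lama2 and Vcl, against 1.81% of all genes. A match is a description of the letters and not evidence of binding.

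The other matrix ligands all lay below the median of all genes under bilberry. The median of the 6 minus that of all genes was -0.32 under bilberry, -0.09 under delphinidin and -0.22 under cyanidin. The delphinidin value changed sign in 2 of the 10 alternative settings. All 6 were measured and none passed 2-fold as scaled here. Under bilberry Spp1 was past it after quantile normalization (-1.06), Spp1 (-1.45), Fn1 (-1.16) and Vtn (1.25) were under the first normexp fit, Tnc (1.12) was with a block of array rows left out, and all 6 were lower by more than 2-fold with spike-in scaling.

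Fn1 encodes fibronectin, the ligand of integrin alpha5beta1 and a main component of the preadipocyte matrix. Its scaled signal was 109 under DMSO, 75.5 under bilberry, 68.1 under delphinidin and 85.1 under cyanidin. The DMSO array was the highest. Over the 7 to 9 of its 10 spots kept on an array, the log2 ratios were -0.53 ± 0.01, -0.68 ± 0.01 and -0.36 ± 0.02 (SE over spots). All 4 measured Fn1 probes, spread over the gene from chr1:71524056 to chr1:71561280 on the minus strand, gave ratios below 0 with every treatment. They ranged from -1.17 to -0.53 under bilberry, -1.16 to -0.66 under delphinidin and -1.41 to -0.35 under cyanidin. The furthest was the same probe in each treatment, and it alone passed 2-fold.

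Spp1 encodes osteopontin, a ligand of alphav integrins and of Cd44. Its scaled signal was 40.6 under DMSO, 23.2 under bilberry, 33.0 under delphinidin and 34.1 under cyanidin. Bilberry was the lowest, under DMSO 1.75-fold above it. The log2 ratios, over 6 to 10 spots of 1 probe, were -0.81, -0.30 and -0.26, each with an SE over spots of 0.01.

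By their brightest probes, Thbs1, Tnc and Vtn did not keep 1 direction over the treatments, and Thbs2 stayed close to DMSO. The thrombospondin gene Thbs1 had log2 ratios of 0.05 under bilberry, 0.58 under delphinidin and -0.16 under cyanidin, and its 3 probes ranged from 0.05 to 0.94 under bilberry, from 0.58 to 0.93 under delphinidin and from -0.16 to 0.28 under cyanidin. The mean over its probes was 0.09 under cyanidin. Vtn, the gene for vitronectin, had -0.25, -0.23 and 0.52. The tenascin-C gene Tnc had -0.05, 0.20 and -0.24, but a second probe gave 1.12 under bilberry. Thbs2, a second thrombospondin gene, had 0.06, 0.04 and 0.20.

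Integrin genes as a class stayed near the median of all genes, by 0.08 under bilberry, 0.01 under delphinidin and 0.10 under cyanidin. That sign changed in 4, 5 and 1 of the 10 alternative settings, so no direction is given for the class. Of 18 subunits, 11 were measured, 2 on some arrays only and 5 (Itga1, Itga2, Itga4, Itga9 and Itgb6) on none. Itga1 and Itga2 encode collagen receptor subunits, Itga4 and Itga9 bind fibronectin and tenascin, and Itgb6 is a partner of Itgav in epithelium.

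The fibronectin receptor is formed by Itga5 and Itgb1. Itga5 had log2 ratios of -0.04 under bilberry, -0.42 under delphinidin and -0.25 under cyanidin. Itgb1, the beta subunit shared by most of these receptors, had -0.17, -0.08 and 0.16, with an SE of 0.01 over 8 to 10 spots. A second Itgb1 probe gave -0.69 under bilberry. None of these passed 2-fold.

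The laminin receptors use Itga3, Itga6 and Itga7 with Itgb1, and Itga6 with Itgb4. Itga3 had scaled signals of 0.0532 under DMSO, 0.142 under bilberry, 0.0801 under delphinidin and 0.0970 under cyanidin. DMSO was the lowest and bilberry 2.67-fold above it. The log2 ratios were 1.42, 0.59 and 0.87. All 3 Itga3 probes were higher under bilberry, but over a wide range, 0.85 to 3.35, and under delphinidin and cyanidin they fell on both sides of 0 (-0.16 to 0.89 and -0.30 to 0.94).

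Itga6 had scaled signals of 6.19 under DMSO, 6.95 under bilberry, 7.32 under delphinidin and 8.25 under cyanidin. DMSO was the lowest and cyanidin the highest, with log2 ratios of 0.17, 0.24 and 0.41. The bilberry value was below 0 after quantile normalization and under the first normexp fit, and the dimmest Itga6 probe gave -0.31, -0.10 and -0.41. Itga7 had -0.04, -0.11 and -0.01, and Itgb4 had 0.55, 0.04 and 0.12. Under the first normexp fit the bilberry values were 1.52 and 1.54, both past 2-fold.

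The receptors that recognize the RGD sequence of vitronectin, osteopontin and fibronectin include Itgav with Itgb3, Itgb5, Itgb6 or Itgb8, and Itga8 with Itgb1. Itgb5 had scaled signals of 25.2 under DMSO, 30.1 under bilberry, 22.4 under delphinidin and 23.1 under cyanidin. Itgb3 had 5.93, 7.06, 7.55 and 7.01. Itgb5 was highest under bilberry and lower than DMSO with both anthocyanidins (log2 ratios 0.25, -0.17 and -0.13), while for Itgb3 the DMSO array was the lowest (0.25, 0.35 and 0.24). The bilberry values of both fell below 0 under the first normexp fit, and that of Itgb5 also after quantile normalization.

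Itgav had log2 ratios of 0.43 under bilberry, -0.00 under delphinidin and -0.14 under cyanidin. A dimmer Itgav probe gave -1.26 under cyanidin. Itga8, a subunit of mesenchymal cells, had scaled signals of 0.0960 under DMSO, 0.0478 under bilberry, 0.0701 under delphinidin and 0.0547 under cyanidin. DMSO was the highest, 2.01-fold above bilberry, which is just past the limit. Its log2 ratios were -1.01, -0.45 and -0.81, and a second probe gave -0.98, -0.67 and -0.93. The bilberry value was short of 2-fold after quantile normalization (-0.97), as the mean over probes (-0.99), with a block of array rows left out (-0.98) and under the second normexp fit (-0.15), and it turned to 1.53 under the first.

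Itgb8 was well above background under DMSO (0.0231) and delphinidin (0.0120) and not under bilberry (0.00453) or cyanidin (0.00407). DMSO was at least 2.15-fold higher than cyanidin and at least 1.04-fold higher than bilberry, and delphinidin was at least 1.12-fold higher than cyanidin. The bound takes the brighter array against the lowest signal counted as well above background on the dimmer array, or the probe's own signal there if higher. Itga11, a collagen receptor subunit of fibroblasts, was measured on the same 2 arrays (0.0282 under DMSO and 0.0170 under delphinidin), with 0.00749 under bilberry and 0.0111 under cyanidin. DMSO was at least 2.53-fold higher than cyanidin and at least 1.26-fold higher than bilberry, and delphinidin at least 1.53-fold higher than cyanidin. For both genes the 2 arrays without detection were bilberry and cyanidin.

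Itgb7 encodes the beta subunit that pairs with alpha4 or alphaE on leukocytes. Itga4 was not above background here, and the alphaE gene Itgae, measured on all 4 arrays, had log2 ratios of -0.66, -0.43 and -0.37. The scaled signal of Itgb7 was 0.268 under DMSO, 0.543 under bilberry, 0.413 under delphinidin and 0.442 under cyanidin. DMSO was the lowest, and bilberry was 2.03-fold above it, just past the limit. The log2 ratios were 1.02, 0.63 and 0.72, from 1 probe spotted once. Of the macrophage markers, Csf1r was above DMSO under each treatment (1.16, 0.26 and 0.53), Cd14 was below it (-0.13, -0.90 and -0.45) and Ptprc was not above background. The part of such cells was not tested.

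All 16 plaque genes were measured and none passed 2-fold in any comparison by its brightest probe. Under bilberry 14 of the 16 had log2 ratios above 0 and 10 lay above the median of all genes, the class median being 0.18 above it. Under delphinidin and cyanidin the class median was -0.03 and 0.05 from that of all genes. The signs changed in 1, 1 and 2 of the 10 alternative settings, and with no filter on detection the bilberry difference was 0.0047. Under the first normexp fit that difference was -0.19. The bilberry ratios of Ptk2, Crk, Vcl, Tln1, Tln2, Zyx, Actn4 and Flna were then below 0.

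Of the actin linkers, Flna, the gene for filamin A, had scaled signals of 71.7 under DMSO, 109 under bilberry, 81.0 under delphinidin and 77.8 under cyanidin. Bilberry was the highest, 1.52-fold above DMSO (log2 ratio 0.60), and the 3 Flna probes lay between 0.53 and 0.66. Zyx, the gene for the tension-responsive protein zyxin, had 42.2, 60.5, 36.2 and 37.9 in the same order of arrays. Bilberry was again the highest (log2 ratio 0.52), while delphinidin and cyanidin lay below DMSO (-0.22 and -0.15). Under the first normexp fit both bilberry values fell below 0.

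Actn4, the gene for alpha-actinin-4, had scaled signals of 15.7 under DMSO, 16.5 under bilberry, 17.3 under delphinidin and 15.7 under cyanidin, so the 4 arrays were close. Flnc, the muscle-type filamin, stood apart from Flna, with log2 ratios of -0.07 under bilberry, -0.51 under delphinidin and -0.44 under cyanidin. Its 3 probes were below 0 with every treatment. Actn1 had 0.45, 0.35 and 0.29, and Vasp, an actin-assembly factor, had -0.09, -0.11 and 0.06.

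Among the scaffold and adaptor genes, Parva (parvin alpha) had a bilberry log2 ratio of 0.78 from its brightest probe and 0.32 from a second. Crkl had 0.75, and a second probe, which stands for it when a block of array rows is left out, gave 1.07, past 2-fold. Bcar1 (p130Cas) had 0.67 and Pxn (paxillin) 0.59. Under delphinidin these 4 had 0.20, 0.30, 0.00 and -0.11, and under cyanidin 0.31, 0.25, 0.12 and 0.16. Crk, the close relative of Crkl, had 0.18 under bilberry from its brightest probe and 1.90 from another. The kinase genes Ptk2 (focal adhesion kinase) and Src had 0.13 and 0.11 under bilberry, 0.13 and -0.30 under delphinidin, and 0.08 and -0.13 under cyanidin. The 3 Ptk2 probes ranged from -0.27 to 0.13 under delphinidin and from -0.76 to 0.16 under cyanidin, with means of -0.04 and -0.17. Its bilberry value was -0.13 under the first normexp fit. The integrin activators Tln1 and Tln2 had 0.42 and 0.27 under bilberry, and Vcl (vinculin), which binds talin, had 0.06. Under the first normexp fit the talin values were -0.15 and -0.16. That of Vcl was below 0 there, after quantile normalization and as the mean over probes, and a second Vcl probe gave -0.51. By the brightest probes, the talin and vinculin values under delphinidin and cyanidin lay between -0.13 and 0.13.

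Delphinidin and cyanidin differ by an additional hydroxyl group that delphinidin carries on its B ring, and they were given at the same concentration. None of the 38 measured genes differed by more than 2-fold between their arrays, where 0.378% of all genes were higher and 0.345% lower under delphinidin. The median absolute log2 difference was 0.15 over the members and 0.12 over all genes. At a limit of 1.5-fold, 3 of the 38 passed (7.89%, against 2.88% of all genes). With 1 array of each compound no interval between cultures can be given, and values this close do not show that the compounds act alike.

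The 3 genes past 1.5-fold were Vtn, Thbs1 and Lama5. Vtn was 1.68-fold higher under cyanidin (log2 ratio of delphinidin to cyanidin -0.75), Lama5 was 1.59-fold higher under cyanidin (-0.67), and Thbs1 was 1.67-fold higher under delphinidin (0.74). The 3 probes of Thbs1 gave 0.49 to 0.74, whereas Vtn and Lama5 rest on 1 probe each. All 5 laminin chains were lower under delphinidin than under cyanidin, from -0.67 for Lama5 to -0.18 for Lamc1. Their median was -0.23 relative to all genes. That direction was the more frequent one, with 27 of the 38 measured members below 0 and a median over all genes of -0.03. For Lama2, over 7 or more spots, the difference was -0.26 ± 0.02 (SE over spots). A dim Lama4 probe went against its class at 0.82. The integrin, plaque and matrix ligand medians were -0.07, -0.05 and -0.07 from that of all genes.

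**Figure D3:**
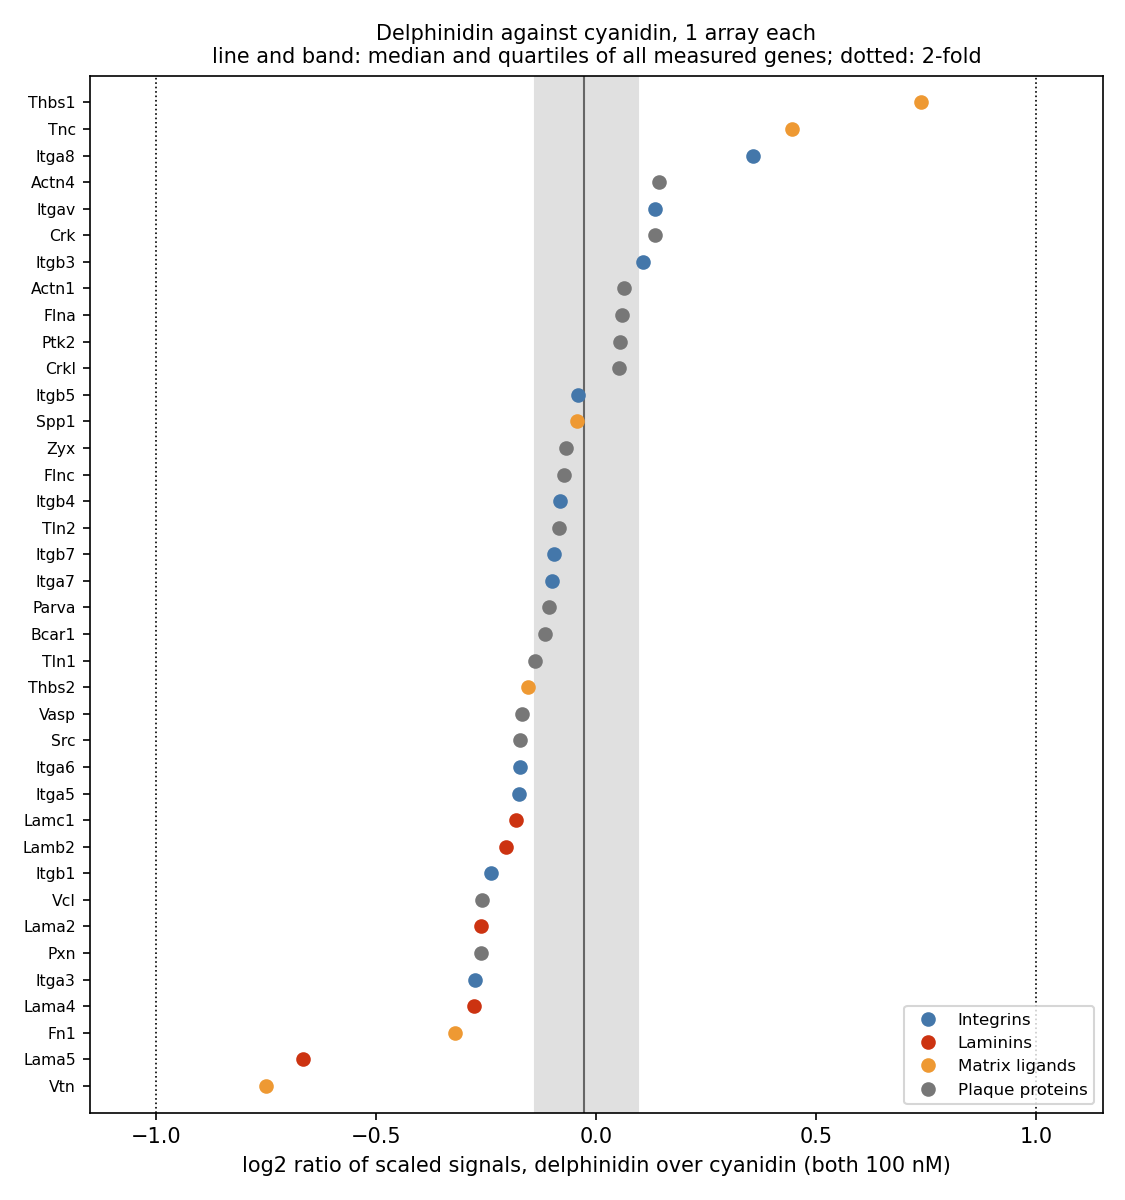
Log2 ratio of delphinidin to cyanidin, both at 100 nM, for the 38 measured genes, coloured by class; the line and band are the median and quartiles of all measured genes. No gene passes the dotted 2-fold lines. Left of the line lie 27 of the 38 genes, among them the 5 laminin chains, of which Lama5 is furthest at -0.67.

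Probes of the same gene limited these readings. Of the members, 25 had 2 or more measured probes (61 probes), and the range between probes of a gene had a median of 0.44 on the log2 scale under bilberry, 0.15 under delphinidin and 0.23 under cyanidin. It exceeded 1 in 3 genes under bilberry (Itga3, Tnc and Crk), in 1 under delphinidin (Itga3) and in 5 under cyanidin (Itga3, Itga6, Itgav, Lama4 and Fn1). By comparison, the SD over replicate spots of a probe had a median of 0.030 to 0.038 per array. Of the discordant probes, the Itga3 probe at 3.35, the second Crk probe and the Fn1 probe at -1.41 lie in a block of array rows that holds 44.5% of the singly spotted, measured probes, and the Tnc probe at 1.12, the Itgav probe at -1.26, the Lama4 probe at -0.69 and the Itga6 probe at -0.41 lie outside it. The single Vtn probe and the brightest Itga8, Itgav and Itgb8 probes lie inside. In that block 1.38% of singly spotted, measured probes differed by more than 2-fold between delphinidin and cyanidin, against 0.338% outside it. For the ratios to DMSO the shares inside and outside were 11.4% and 10.9% under bilberry, 3.00% and 1.89% under delphinidin, and 2.93% and 1.76% under cyanidin. Its part in the values was not tested.

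**Figure D4:**
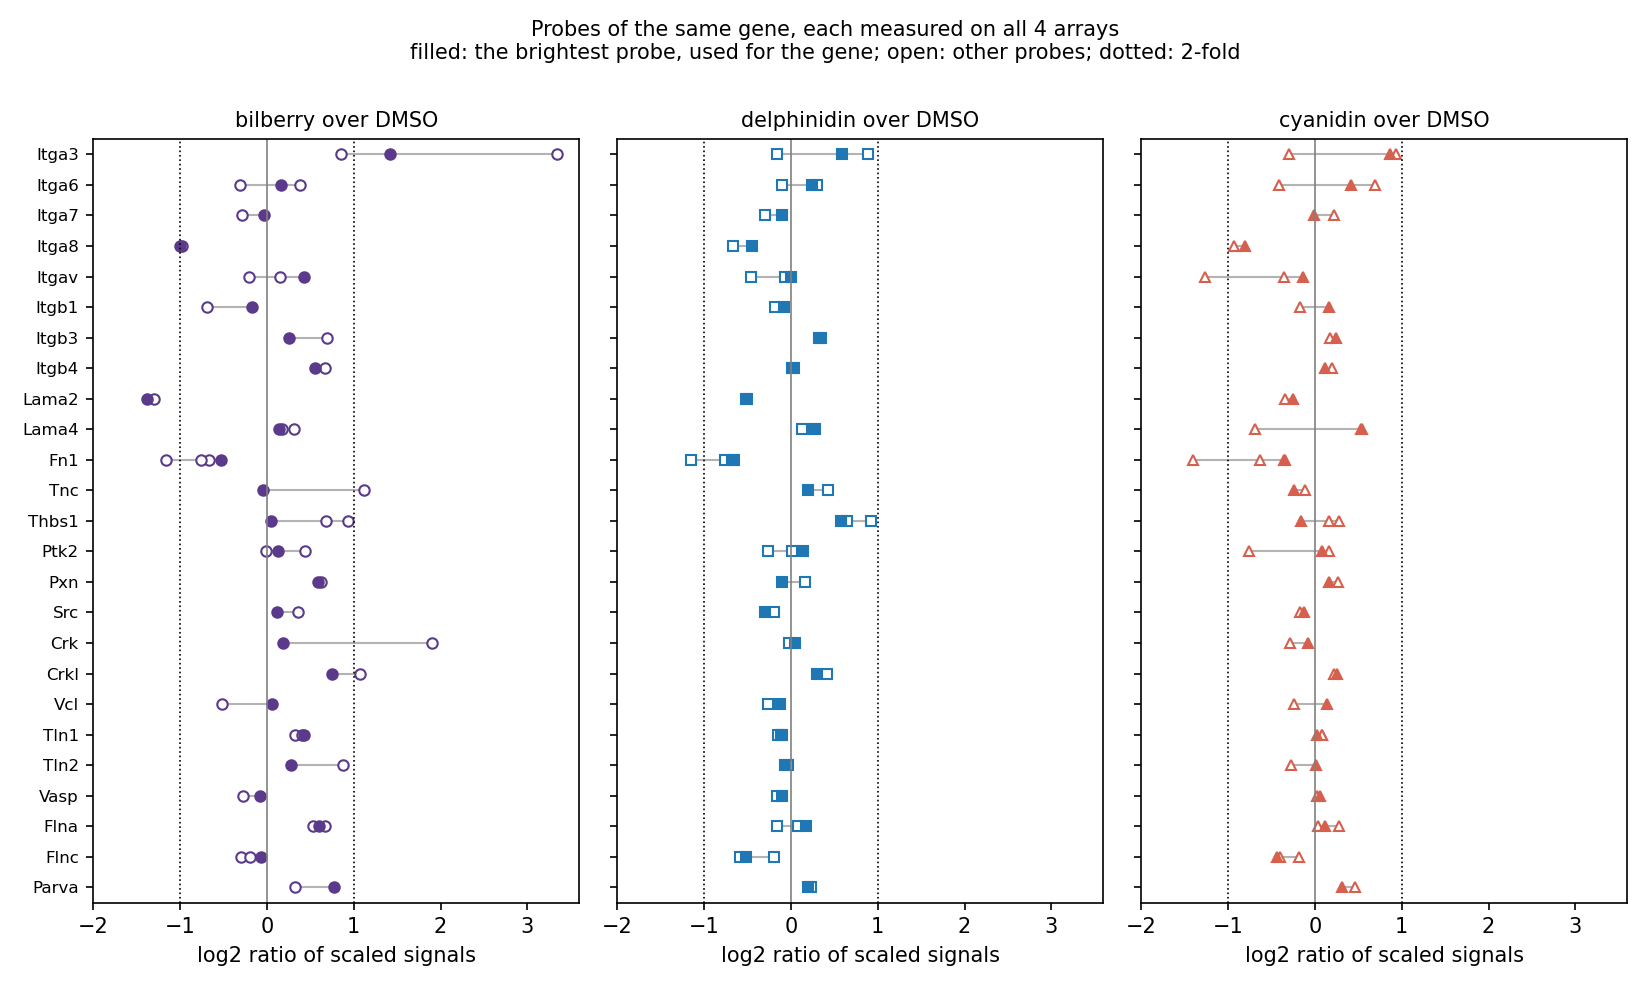
Log2 ratio to DMSO of every measured probe for the 25 genes with 2 or more such probes, under bilberry, delphinidin and cyanidin; filled symbols are the brightest probe and open symbols the others. The 2 Lama2 probes lie close together in each panel (ranges 0.08, 0.01 and 0.08), while the 3 Itga3 probes span 0.85 to 3.35 under bilberry.

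Further genes of cell-matrix adhesion were read from 4 lists of 118 symbols in all, of which 109 had a value and 88 were measured. Under bilberry 1 of the 88 was more than 2-fold higher and 3 were lower, where 3.94% and 6.32% of all genes were. Under delphinidin and under cyanidin 1 was higher, where 1.23% and 0.622% of all genes were, and none was lower. Both bilberry shares lie below that background. The gene higher with each treatment was Actn3, the alpha-actinin of fast muscle fibres, with log2 ratios of 2.14, 1.04 and 1.12. It was dim, with scaled signals of 0.0225 under DMSO, 0.0993 under bilberry, 0.0461 under delphinidin and 0.0489 under cyanidin. All 3 ratios share the low DMSO value. Those lower under bilberry were the kinase genes Rock1 (-2.16) and Rock2 (-1.66), which act on actomyosin contraction, and the periostin gene Postn (-1.07). The same 3 genes had -0.10, 0.07 and 0.56 under delphinidin and -0.17, 0.19 and 0.20 under cyanidin.

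By list, the medians minus that of all genes under bilberry were -0.68 for 10 further integrin, laminin and matrix subunits, 0.16 for 29 further plaque genes, 0.02 for 29 signalling genes and -0.24 for 20 basement membrane and matrix receptor genes. The first of these lists holds the laminin chain Lamb1-1, named here after its values were seen, which had log2 ratios of -0.51 under bilberry, -0.11 under delphinidin and 0.14 under cyanidin. Under delphinidin the 4 medians were -0.12, -0.05, -0.00 and -0.09, and under cyanidin 0.08, 0.02, 0.03 and -0.21.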

How the data were processed

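Cy3-labeled RNA of the 4 samples went onto 4 Agilent Whole Mouse Genome arrays of 1 slide, read in 1 scan. The authors deposited the Feature Extraction output, whose processed signal is an intensity after local background subtraction. A deposited table of the series holds the same intensity values. No column of another sample was present (0).

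Control spots were removed, as were the 701 to 875 spots on each array that the software had marked as outlying. With a floor of 0.01 on the intensity, signals were then divided by the 75th percentile of the array and converted to log2, and spots of a probe were averaged. The number of arrays limits the precision. Every member is named, with all 4 values for those past 2-fold, the brightest of each class and those measured on some arrays. Partner genes are given with values when past 2-fold. Also given are Itgae, as a partner of Itgb7, and Lamb1-1, which was added after its values were seen. The members, lists and alternatives were chosen with earlier results of these data known. Motifs were counted in RefSeq promoters. A comparison with transcript length was not made, since no lengths were given. Alternatives covered detection, background correction, scaling, outlier spots, thresholds, probe choice and array rows. The calculations were tested on simulated data. Python 3.11.15, numpy 2.4.6, pandas 2.3.3, matplotlib 3.10.9, R 4.3.3 and limma 3.58.1 were used.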

Additional observations from a re-analysis of the deposited data

How the results depend on the processing

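Lama5 was lower by more than 2-fold with delphinidin and with cyanidin under all settings run at that threshold. Shares of all genes past the same limit follow each count in parentheses. The bilberry count of 5 genes became 9 (13.7%) with no filter on detection, 10 (25.2%) after normexp (4 lower, Lama5 and Lama2 not among them), 2 (5.82%, Lama2 and Lama5) after normexp fitted without spots marked for their local background, and 30 (78.5%), all lower, with spike-in scaling, so the count moved with the share. In the first normexp fit the background mean of the bilberry array was -345, against -6.15 to -3.88 on the others. At 1.5-fold the counts were 12 (32.0%) with bilberry, 4 (9.72%) with delphinidin, 4 (7.81%) with cyanidin, 3 (2.88%) between delphinidin and cyanidin, and 3 (3.73%) common to all treatments. At 3-fold they were 1 (2.68%) with bilberry, 0 (0.463%) with cyanidin and 0 (0.168%) common to all. The common count was also 0 (0.185%) at 2-fold under the first normexp fit. The cyanidin count of 1 became 3 (6.87%) with no filter, 2 (1.66%) after quantile normalization, 2 (1.93%) with spike-in scaling and 2 (1.32%) with a block of array rows left out. The count between delphinidin and cyanidin became 1 (6.45%, Itgb8) with no filter. The bilberry log2 ratio turned to 1.53 for Itga8 under the first normexp fit, and to -0.13 for Itga3 and -0.52 for Itgb7 with spike-in scaling. The causes were not tested. Keeping marked spots, the deposited value table, median scaling and the mean over probes moved no count by over 1.5 times, though with the last Crk took the place of Itga8 under bilberry. No paired analysis was possible because each group holds 1 array. Signal over background limits the dim subunits, for which bounds are given.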
